A study of Mus musculus with 3 samples.

Results

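Naive CD4 T cells were taken from single-cell RNA sequencing of mouse peripheral blood mononuclear cells, the lymphocytes and monocytes of blood. They were chosen by raw UMIs (unique molecular identifiers, each standing for 1 captured RNA molecule). A member had at least 2 UMIs of Cd3d, Cd3e and Cd3g together, at least 1 of Cd4, none of Cd8a and Cd8b1, at most 1 of Cd79a and Cd79b, none of Foxp3, none of Rora, Maf, Tnfsf8 and Cxcr3, and at least 2 of Igfbp4, Lef1 and Ccr7 together. Barcodes first had to hold at least 200 genes, at most 7.5% mitochondrial UMIs and under 20% haemoglobin UMIs. Of 44212 barcodes, 28333 were kept, and 1117 of these were naive CD4 T cells: 742 in the young library, 148 in the aged library and 227 in the aged-GA library. The study asked how glycyrrhizic acid (GA), a triterpenoid of liquorice root, acts on the blood cells of old mice. The mice were female C57BL/6, aged 8 weeks in the young group and 16 months in the aged and aged-GA groups. The aged-GA mice were given GA for 1 month into the tail vein, and the methods state that controls received PBS where the labels give no treatment. Several mice per group were bled for the sequencing, but each group had 1 library whose cells carry no label of the mouse, so the libraries give no replicate error. Differences between libraries were therefore described without a test, and intervals are exact 95% intervals that cover counting error only.

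A naive CD4 T cell has left the thymus and has not yet met its antigen. It circulates between blood and lymph nodes, entering them with the help of the chemokine receptor Ccr7 and leaving through the sphingosine phosphate receptor S1pr1. The transcription factors Tcf7 and Lef1 keep it in the naive state, and interleukin 7, read by Il7r, and the antiapoptotic protein Bcl2 keep it alive. After activation, memory cells carry more Cd44 and S100 proteins, and many of them lose Ccr7. With age, the thymus makes fewer new naive cells and the naive pool shrinks.

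The label was checked on genes that the choice did not use. The summed level of Tcf7 was 561, 725 and 650 CPM (UMIs per 1000000 UMIs of the same cells) in the young, aged and aged-GA libraries, against 3.63, 4.96 and 7.21 CPM in B cells and 582, 655 and 605 CPM in memory CD4 T cells, so Tcf7 marked T cells and did not set the members apart from memory cells. S100a4, a calcium-binding protein of memory T cells, was at 1.12, 25.4 and 26.4 CPM in naive CD4 T cells and at 295, 915 and 871 CPM in memory CD4 T cells, the CD4 cells with a UMI of Rora, Maf, Tnfsf8 or Cxcr3. Cd44, the hyaluronate receptor of activated cells, was at 14.5, 28.4 and 34.6 CPM against 56.9, 187 and 184 CPM. The 31 genes of the memory and activation list together held 2092, 2794 and 2673 CPM in naive and 6459, 14996 and 12991 CPM in memory CD4 T cells. The gate split the cells on this axis, so these levels describe the 2 classes and were not tested.

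The Cd4 limit bound most of the cells. A single Cd4 UMI was found in 565, 114 and 168 members across young, aged and aged-GA libraries. Just outside this limit were 1542, 218 and 329 T cells that met every other criterion with Cd4 and Cd8 both at 0, and their Tcf7 level was 539, 721 and 636 CPM, near that of the members. S100a4 was at 2.12, 196 and 20.4 CPM in them, so the aged cells outside the limit held more of this memory gene than those inside it. The limit on naive genes bound few: 42, 8 and 7 members held exactly 2 UMIs of Igfbp4, Lef1 and Ccr7, and 11, 8 and 4 cells fell 1 UMI short. The limit on memory genes was crossed by 1 UMI in 142, 40 and 64 cells that met every other criterion, out of 245, 359 and 477 memory CD4 T cells. These cells held S100a4 at 6.39, 27.95 and 30.9 CPM and Tcf7 at 571, 900 and 683 CPM, nearer to the members than to memory CD4 T cells as a whole in S100a4, and in the young library they were most of the memory class. The median member held 4713, 4403 and 5031 UMIs and 1387, 1550 and 1663 genes, and members of different libraries shared no barcode, against 50 to 62 shared barcodes per pair of libraries among all. The whole libraries held 58894294, 82260961 and 98155671 UMIs.

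Naive CD4 T cells were scarcer in both libraries of old mice than in the young library. Their percentages of kept cells were 8.88 (8.28 to 9.51), 1.62 (1.37 to 1.90) and 2.09 (1.83 to 2.38) for the young, aged and aged-GA libraries, so the aged share was 5.48-fold lower than the young one. Part of this gap came with the share of all T cells, which was 63.1%, 23.5% and 31.6% of kept cells. Within T cells the naive CD4 share was 14.1% (13.1 to 15.0%), 6.89% (5.86 to 8.05%) and 6.62% (5.81 to 7.51%), a 2.04-fold gap between young and aged. Within CD4 T cells it was 72.5% (69.7 to 75.2%), 26.5% (22.9 to 30.4%) and 30.4% (27.1 to 33.9%). Memory CD4 T cells, the cells 1 UMI past the limit included, took 23.9%, 64.3% and 63.9% of CD4 T cells, and regulatory CD4 T cells, those with a UMI of Foxp3, took 1.96%, 6.45% and 3.75%.

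**Figure D1:**
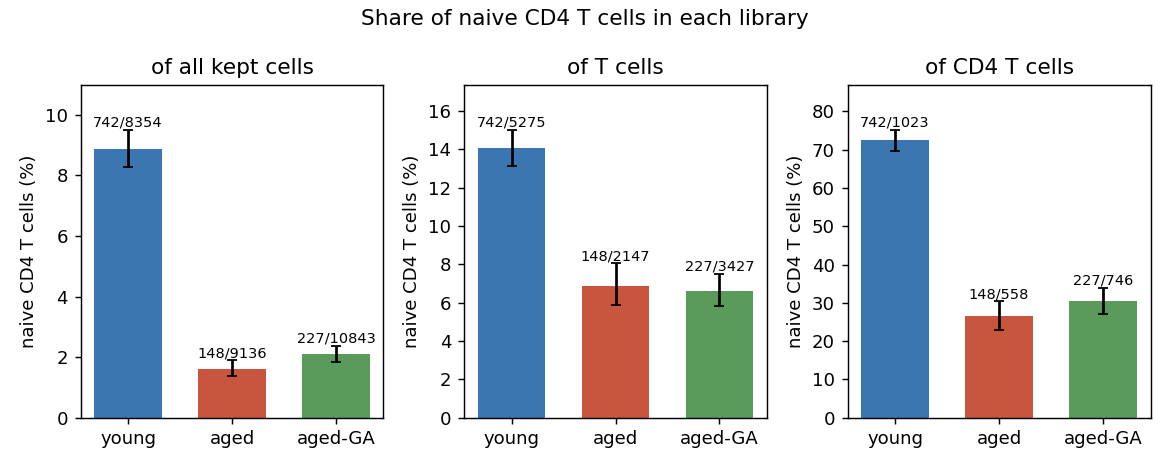
Share of naive CD4 T cells (y axes, %) in the young, aged and aged-GA libraries, with kept cells, T cells or CD4 T cells as the denominator; bars are the shares, lines exact binomial 95% intervals and the labels cells over denominator. The young share lies above both others in each panel, and the aged and aged-GA intervals overlap in all 3.

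Between the aged and aged-GA libraries the order of the shares depended on the denominator. The aged-GA share was 1.29-fold the aged one among kept cells and 0.961-fold among T cells. On the log2 scale these ratios were 0.37 (0.07 to 0.67) and -0.0575 (-0.35 to 0.23), with normal intervals for counting error. Without the Cd4 limit, 27.3%, 4.01% and 5.13% of kept cells passed, so the young library stood highest under that choice too. After thinning each cell to 2000 UMIs before the choice, the shares were 4.08%, 1.04% and 1.21%. Fewer cells of a type and less RNA of its marker genes per cell cannot be told apart where cells are chosen by UMIs.

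Levels were next compared between the aged and young libraries over the 148 and 742 members. Genes were counted from 100 UMIs on, summed over the pair of libraries. Of 4016 such genes, 132 (3.29%) were at least 2-fold higher and 48 (1.2%) at least 2-fold lower in the aged library, on the log2 ratio of CPM + 1. The median log2 ratio of all counted genes was 0.17, and a ratio is best read against this shift. Centred on that median, 59 genes were 2-fold higher and 102 lower, and with totals that left out mitochondrial, ribosomal protein and haemoglobin genes the numbers were 95 and 77. The split of higher against lower genes thus turned with the scaling. Mitochondrial UMIs were 5.03, 2.82 and 3.83% of the median member across young, aged and aged-GA libraries, and their part in these ratios was not tested.

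Ddit4, Gadd45b and Dusp2 were among the genes with the lowest ratios in the aged library. Ddit4, an inhibitor of mTOR complex signaling that glucocorticoids and low oxygen induce, was at 97.4, 19.4 and 38.7 CPM across young, aged and aged-GA cells, a log2 ratio of -2.27 between aged and young. Gadd45b, a stress protein that binds upstream MAP kinases, was at 225, 50.8 and 84.0 CPM (-2.13). Dusp2, a nuclear phosphatase of MAP kinases, was at 559, 179 and 220 CPM (-1.64). In each of these 3 genes the young level lay above the intervals of both old libraries.

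Of 12 glucocorticoid-responsive genes, 11 were counted, and 5 of them (Ddit4, Tsc22d3, Fkbp5, Txnip and Errfi1) were at least 2-fold lower in the aged library and none higher. The median log2 ratio of the list was -0.87, against 0.17 over all genes. Tsc22d3, which encodes the glucocorticoid-induced leucine zipper, was at 904, 390 and 414 CPM in young, aged and aged-GA cells. Txnip, the inhibitor of thioredoxin that also limits glucose uptake, was at 2145, 916 and 994 CPM. Fkbp5, a cochaperone of the glucocorticoid receptor, was at 27.6, 7.47 and 17.3 CPM, the aged level resting on few UMIs. Per1, a clock gene that glucocorticoids induce, stood in the reverse order, at 83.4, 117 and 118 CPM. The same list had medians of -0.62 in naive CD8 T cells and -0.76 in B cells of the same libraries, where the medians of all counted genes were 0.25 and 0.29, so the lower levels of the list were not limited to CD4 cells. Of the 5 genes, Fkbp5 was level in naive CD8 T cells, at 15.5, 16.1 and 16.8 CPM, and the others were lower in the aged ones.

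Quiescence genes differed little as a group, with 2 exceptions. Of 22 counted naive and quiescence genes, Dapl1 and Tob1 were at least 2-fold lower in the aged library and none was 2-fold higher, with a median of 0.07 that lay below the 0.17 of all genes. Dapl1, a small protein found in naive T cells, was at 288, 100 and 157 CPM across young, aged and aged-GA cells. Thinned to 2000 UMIs, 30.4, 12.2 and 15.0% of members held a Dapl1 UMI, against 0.424%, 0.077% and 0.247% of B cells, which lack it (unthinned, 43.8%, 19.6% and 28.2% of members). Tob1, an antiproliferative protein of resting T cells, was at 136, 64.2 and 81.5 CPM. Satb1, a chromatin organiser, was level at 918, 911 and 857 CPM, and S1pr1 was at 283, 385 and 343 CPM. Il7r was at 1180, 731 and 699 CPM, lower in both old libraries by less than 2-fold.

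Igfbp4, a binding protein of insulin-like growth factors and one of the genes the members were selected on, was at 567, 1077 and 773 CPM across young, aged and aged-GA members. Lef1 was at 801, 672 and 673 CPM and Ccr7 at 493, 547 and 570 CPM. The levels of the 3 chosen markers thus differed in order between the libraries, and since the gate used them they are given as a description.

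Bcl2 was at 382, 741 and 678 CPM, a log2 ratio of 0.96 between aged and young, and 43.2%, 65.3% and 59.5% of thinned members held a UMI of it (64.2%, 79.7% and 78.0% unthinned), against 17.3%, 24.5% and 27.5% of thinned B cells. Of its proapoptotic counterparts, Bcl2l11 and Bbc3 were lower in the aged library, at 138, 95.6 and 106 CPM and at 159, 89.6 and 104 CPM. Bax was at 114, 133 and 121 CPM, a log2 ratio of 0.22 between aged and young that lay near the 0.17 of all genes, and Bak1, at 42, 10 and 12 UMIs, was too low to be counted. None of the 14 counted genes of the cytokine receptor and survival list passed 2-fold in either direction, and the list median was -0.05.

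Antigen presentation genes of MHC class I were mostly higher in the aged library. All 17 genes of the class I and immunoproteasome list were counted, 16 had a ratio above 0 and 13 a ratio above the median of all genes, and the list median was 0.53. It was 0.32 in naive CD8 T cells and 0.35 in B cells, nearer to their medians of all genes, 0.25 and 0.29, than in naive CD4 T cells. The summed level of the list was 8622, 10211 and 10044 CPM in the young, aged and aged-GA members. It was 9147, 12009 and 11970 CPM in memory CD4 T cells and 8917, 10230 and 10231 CPM in naive CD8 T cells. In B cells it was 7894, 9070 and 8910 CPM, so the higher level was not limited to naive CD4 T cells. H2-Q6, a Qa-2 class Ib gene, and Nlrc5, the transactivator of class I genes, passed 2-fold. H2-Q6 was at 53.6 CPM (46.3 to 61.7) in the young library, 158 CPM (130 to 192) in the aged one and 159 CPM (137 to 183) in the aged-GA one. Nlrc5 was at 25.4, 79.2 and 51.9 CPM. In memory CD4 T cells the aged-to-young log2 ratios of H2-Q6 and Nlrc5 were 1.70 and 1.45, against 1.55 and 1.60 in the members. The classical genes H2-K1 and H2-D1 were at 2207, 2706 and 2763 CPM and at 2243, 2090 and 2182 CPM, log2 ratios of 0.29 and -0.10. Psme1 and Psme2, the activator subunits of the immunoproteasome, were at 300, 472 and 344 CPM and at 182, 330 and 234 CPM. H2-Q6 and H2-Q7 are near-identical copies, so reads may have been split between them or dropped, and the H2-Q6 values are uncertain for that reason.

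The promoters of 4 class I genes are shown, those of the list that held GGGGATTCC in the 250 bases before the start. The aged-to-young log2 ratios of these genes ran from -0.10 to 1.55, and a relation of the ratios to the sequence was not tested. Each stretch of 100 bases is from RefSeq (GRCm38.p6), 5′ to 3′ on the strand of the gene, and lies wholly before the transcription start. Capitals mark the letters GGGGATTCC (the kappa B element), GAANNGAAA (the core of the interferon response element, here read on the other strand) and TGACG (the core of the cAMP response element), each searched on both strands and none overlapping another here. The stretches are H2-K1 at chr17:34000369-34000468 (minus strand), H2-D1 at chr17:35262913-35263012, H2-Q7 at chr17:35439012-35439111 and H2-Q6 at chr17:35424667-35424766 (plus strand).
H2-K1: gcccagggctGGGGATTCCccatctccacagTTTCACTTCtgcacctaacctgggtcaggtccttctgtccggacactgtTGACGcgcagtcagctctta
H2-D1: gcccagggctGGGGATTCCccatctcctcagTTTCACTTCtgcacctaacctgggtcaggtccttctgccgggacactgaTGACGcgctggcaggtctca
H2-Q7: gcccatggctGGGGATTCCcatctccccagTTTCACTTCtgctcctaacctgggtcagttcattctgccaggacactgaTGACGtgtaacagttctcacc
H2-Q6: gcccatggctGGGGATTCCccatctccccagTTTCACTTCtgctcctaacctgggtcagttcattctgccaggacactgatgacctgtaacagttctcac

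The H2-Q6 and H2-Q7 stretches were 3 single-base edits apart, and those of H2-K1 and H2-D1 were 8 apart. The genes and the stretches were chosen by GGGGATTCC, so its presence in all 4 follows from the choice. All 4 also held the interferon response letters, and TGACG was found in 3 of them, H2-Q6 being the one without it. Of 27025 promoters of mouse genes, 0.218% held GGGGATTCC in the 250 bases before the start, 6.34% held GAANNGAAA and 17.9% held TGACG. Among the 15 genes of the list with a promoter entry, 4 held GGGGATTCC, 5 held GAANNGAAA and 9 held TGACG. The 4 with GGGGATTCC were the genes shown, whose stretches were 3 to 17 edits apart, so they do not count as independent cases.

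Interferon-stimulated genes had a median of 0.49 over 18 counted genes, and Slfn5 and Trim30a passed 2-fold upward, though neither did once ratios were centred on the median of all genes (0.99 and 0.90). Bst2, which tethers virus particles, was at 97.7, 193 and 150 CPM in young, aged and aged-GA cells. Ifi27l2a, a mitochondrial protein that interferon induces, was at 685, 1288 and 1072 CPM. Irf1 was lower in the old libraries, at 111, 82.2 and 79.1 CPM. The list medians in naive CD8 T cells and B cells were 0.43 and 0.52, beside 0.25 and 0.29 over all their counted genes.

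**Figure D2:**
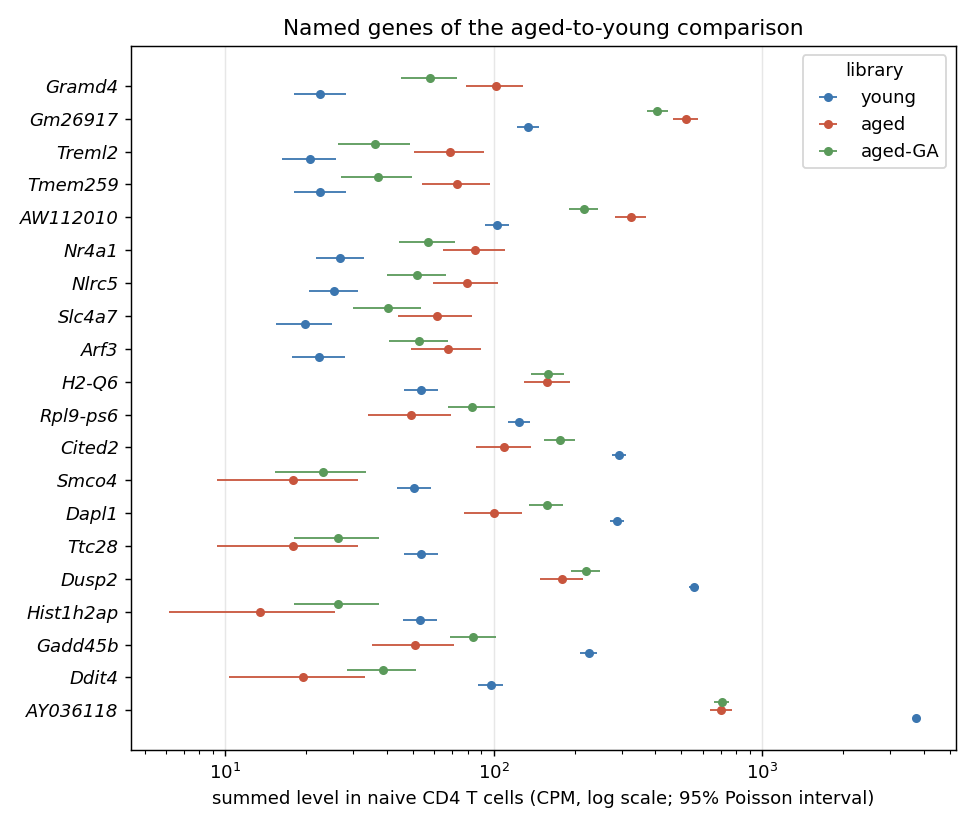
Summed level in naive CD4 T cells (x axis, CPM, log scale, with exact Poisson 95% intervals) of the 10 genes with the largest and the 10 with the smallest aged-to-young ratio among those of at least 50 CPM, without haemoglobin, immunoglobulin and the other classes left out of naming, by library. Intervals of young and aged cells are apart for all 20 genes, and of these AY036118 shows the widest gap, from 3746 CPM in young to 704 CPM in aged cells. The genes were picked by this ratio, and some, such as Treml2, reached 50 CPM in 1 library alone. That the intervals lie apart thus follows largely from the choice.

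The other genes named by the size of their ratio had mixed roles. AY036118, a noncoding transcript, was at 3746, 704 and 707 CPM and had the lowest log2 ratio of the named genes, -2.41. The same ratio was -2.25 in naive CD8 T cells, -2.08 in memory CD4 T cells and -2.095 in B cells. Cited2, a transcriptional coregulator, was at 294, 109 and 176 CPM, and Hist1h2ap, a histone H2A gene, at 53.3, 13.4 and 26.4 CPM. Ttc28, Smco4 and the pseudogene Rpl9-ps6 completed the lower side, with log2 ratios between -1.53 and -1.32. On the higher side, leaving out haemoglobin, mitochondrial, ribosomal protein, immunoglobulin, T cell receptor segment and gate genes, Gramd4 had the largest log2 ratio, 2.12, at 22.6, 102 and 57.7 CPM. Nr4a1, an orphan nuclear receptor induced by T cell receptor signals, was at 26.8, 85.2 and 56.8 CPM. AW112010, an interferon-inducible transcript, was at 103, 324 and 217 CPM. Gm26917, Treml2, Tmem259, Slc4a7 and Arf3 had log2 ratios between 1.55 and 1.94. In thinned cells the ratio of Rpl9-ps6 was -2.14 and that of Gadd45b -1.58, and those of Nr4a1 and AW112010 were 2.24 and 1.91, against 1.63 and 1.65 in all UMIs. In naive CD8 T cells and in B cells all 20 genes had a log2 ratio of the same sign as in naive CD4 T cells, and these cells came from the same libraries. In memory CD4 T cells 18 of the 20 did, and Treml2 (-0.73) and Smco4 (0.47) had the opposite sign.

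Of the remaining lists, immediate early genes had a median of -0.26, with Dusp2 and Rgs1 lower and Nr4a1 higher by 2-fold, and Fos and Jun within it, at 251, 221 and 334 CPM and at 373, 345 and 316 CPM. The 28 counted genes of T cell receptor signaling had a median of 0.30, with Rasgrp1, the exchange factor that activates Ras, at 67.0, 143 and 132 CPM past 2-fold by its log2 ratio of 1.09, but not at the 0.91 it had when centred on the median of all genes. Among memory and activation genes S100a11, Itgb1 and Ly6a passed 2-fold upward, of 16 counted with a median of 0.27, which was 0.0125 without the cells that held 10 or more UMIs of other cell types. Ly6a, the Sca-1 antigen, was at 99.9, 232 and 198 CPM, whereas its neighbour Ly6c1 was at 118, 61.3 and 69.2 CPM. All 13 mitochondrially encoded genes were lower in the aged library, 3 of them (mt-Nd2, mt-Co3 and mt-Atp6) by 2-fold, with a median of -0.90. Their median was -0.58 in naive CD8 T cells and -0.69 in B cells, so these lower levels were not limited to CD4 cells. Heat shock genes (median -0.15), homing and egress genes (0.28), and CD4 lineage and helper genes (0.15, and -0.16 in thinned cells) held no gene past 2-fold. CDK inhibitors and p53 targets had a median of -0.17, with Gadd45b alone past 2-fold, and Cdkn2a was at 0 UMIs in all 3 libraries, where 3 UMIs in a library, the most that a count of 0 was taken to allow, would be 0.837, 4.48 and 2.47 CPM. Glycolysis genes had a median of -0.02, with Pfkp past 2-fold upward, and of 4 counted cell cycle genes Hmgb2 was 2-fold lower. Centred on the median of all genes, mt-Cytb, mt-Nd3, mt-Nd4l, mt-Nd5, Gadd45g, Stmn1, Sgk1, Btg2, Ly6c1 and Pik3ip1 also passed 2-fold downward.

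RNA of other cells was found in the members. Hbb-bs, the beta globin of red cells, was at 578, 4569 and 3825 CPM across young, aged and aged-GA naive CD4 T cells, and 4 of 5 counted erythroid genes passed 2-fold, at a median of 2.98 that was 3.04 in naive CD8 T cells and 3.07 in B cells. Slc4a1 was at 0 UMIs in all 3 libraries. The 13 myeloid markers together held 256, 735 and 1382 CPM, led by Ctss in young and aged cells and by S100a9 in aged-GA cells. The 14 B cell markers held 215, 453 and 843 CPM, led by Ighm and, in aged-GA cells, by Cd74; Pax5 was at 0 UMIs in young and aged-GA cells and Ms4a1 in aged cells. The 10 NK and cytotoxic markers held 102, 68.7 and 152 CPM, with Ncr1 and Klrk1 at 0 UMIs in aged cells. The 8 platelet markers held 0.837, 22.4 and 18.1 CPM, and 6 gamma-delta T markers held 8.09, 17.9 and 5.77 CPM, with Sox13 at 0 UMIs throughout. The 8 regulatory T markers held 248, 314 and 281 CPM in naive and 462, 935 and 984 CPM in memory CD4 T cells. The part of this RNA in the ratios was not tested. Without the cells that held 10 or more UMIs of B cell, myeloid, NK and platelet markers, 128 genes were 2-fold higher and 49 lower in the aged library. That setting kept 731, 135 and 194 members, set no limit on erythroid markers and left smaller amounts of such RNA in place.

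**Figure D3:**
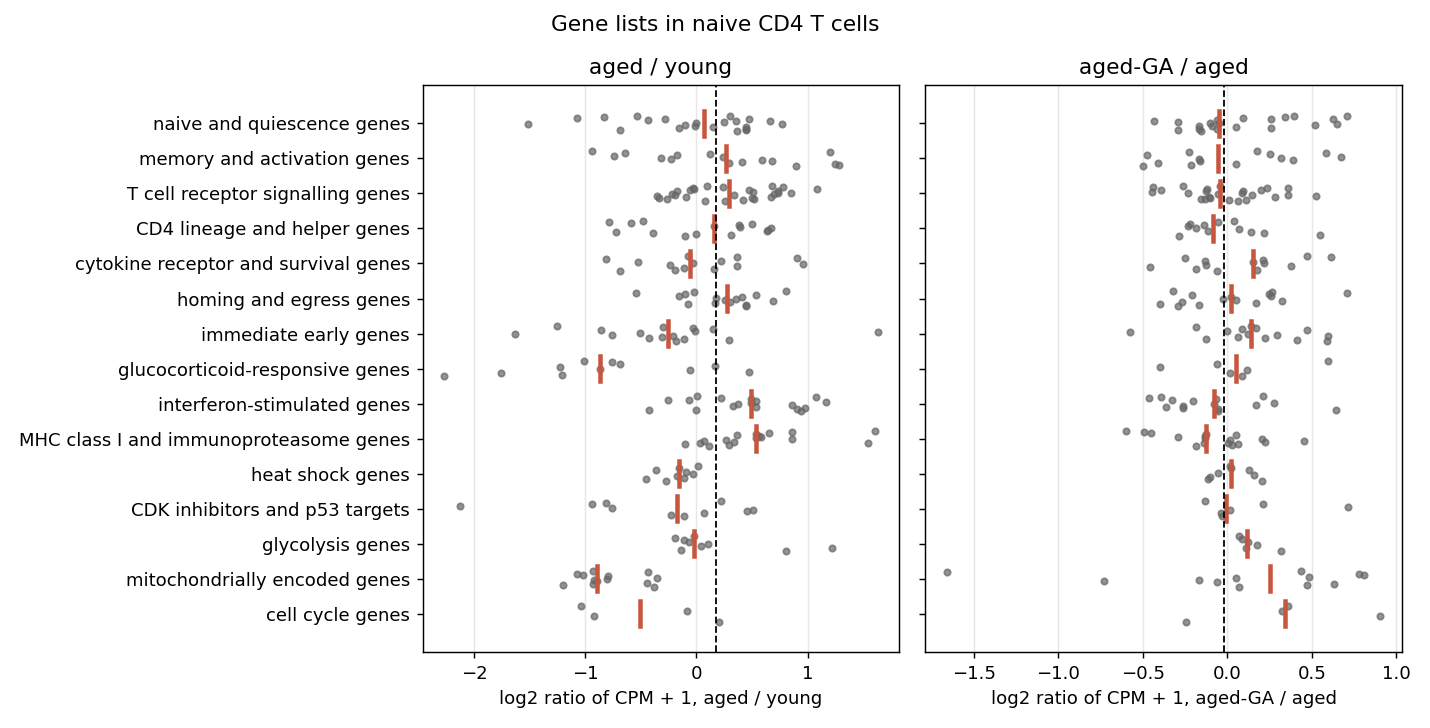
Log2 ratio of CPM + 1 (x axes) of the counted genes of 15 lists in naive CD4 T cells, aged over young on the left and aged-GA over aged on the right; points are genes, red bars list medians and the dashed line the median of all counted genes. Glucocorticoid-responsive and mitochondrially encoded genes lie lowest on the left, at medians of -0.87 and -0.90, and class I and interferon-stimulated genes highest, at 0.53 and 0.49.

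Between the aged-GA and aged libraries, naive CD4 T cells differed in few genes. Of 2301 counted genes, 11 (0.478%) were at least 2-fold higher and 4 (0.174%) at least 2-fold lower in the aged-GA library, and the median log2 ratio was -0.02. As a mean over cells the numbers were 5 and 7, without the deepest 5% of cells 4 and 5, and in thinned cells 3 and 3. With a minimum of 20 UMIs they were 183 and 110 of 6741 genes. This comparison shares the aged library with the one before. The medians of glucocorticoid-responsive, interferon-stimulated and class I genes were 0.05, -0.08 and -0.13, and no counted gene of these 3 lists passed 2-fold. Naive and quiescence genes had a median of -0.05 over 21 genes, and immediate early genes one of 0.14 over 15.

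Most genes on the higher side were genes of myeloid and B cells. Il1b, the inflammatory cytokine interleukin 1 beta, was at 0.279, 7.47 and 170 CPM across young, aged and aged-GA members. Of its 207 UMIs in the aged-GA library, 87.0% came from 3 cells. The chemokine Cxcl2 was at 0.558, 10.5 and 84.0 CPM, with 86.3% of its aged-GA UMIs in 3 cells. Cd74, the invariant chain of MHC class II, was at 15.3, 55.3 and 233 CPM, and 54.4% of its aged-GA UMIs lay in 1 cell. For S100a8, a subunit of calprotectin, the levels were 2.51, 77.7 and 231 CPM, with 67.9% of the aged-GA UMIs in 3 cells. Tyrobp, S100a9, Ifitm3, H2-Aa and H2-Ab1 were the other such genes, with log2 ratios between 1.25 and 1.70. In cells thinned to 2000 UMIs the ratios of Tyrobp, S100a9 and Ifitm3 were 0.11, 0.24 and 0.32. Without the deepest 5% of cells those of H2-Aa, H2-Ab1, S100a9, Tyrobp and Cd74 were 0.25, 0.69, 0.64, 0.71 and 0.97, and that of Ifitm3 was -1.05.

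A single aged-GA member held 437 UMIs of myeloid markers and another held 280 UMIs of B cell markers, where the median members held 2 and 3. Without the cells with 10 or more UMIs of B cell, myeloid, NK and platelet markers, which left 731, 135 and 194 members, 3 genes were 2-fold higher and 3 lower. The myeloid and B cell genes named above belong, Cxcl2 apart, to the lists by which these cells were left out, so that their lower values in this setting follow from the choice.

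**Figure D4:**
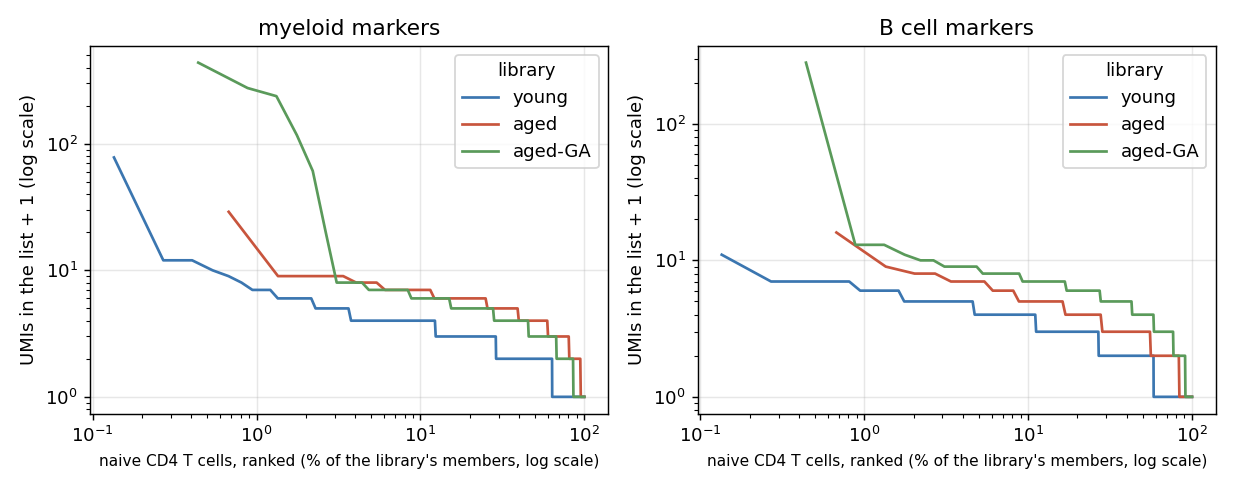
UMIs + 1 of the myeloid (left) and B cell (right) marker lists in single naive CD4 T cells (y axes, log scale), ranked from highest to lowest as a percentage of the members of the library (x axes, log scale). A few aged-GA cells stand far above the rest, the highest at 437 myeloid and 280 B cell UMIs.

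Eif2s1, the alpha subunit of translation initiation factor eIF2, was the 1 named gene on the higher side outside these groups. It was at 71.2, 35.9 and 74.95 CPM in the 3 libraries in that order, with 91 UMIs spread over 73 aged-GA cells. The young and aged-GA intervals overlapped, and the aged level, the lowest, rested on 24 UMIs. On the lower side, Fbxo33, a ubiquitin ligase subunit, was at 41.9, 94.1 and 37.9 CPM and Kcnab2, a subunit of potassium channels, at 40.5, 100 and 47.8 CPM. Lyz2, the lysozyme of myeloid cells, was at 3.91, 88.2 and 42.8 CPM. In thinned cells the aged-GA to aged log2 ratio of Kcnab2 was -0.50, no longer past 2-fold, and that of Lyz2 was -1.81, against -1.05 and -1.02 in all UMIs. Supt20, Prrc2b, Slk, Gstp1, Esyt1, 4921524J17Rik and Atp5md followed with log2 ratios between -0.98 and -0.82. Of the mitochondrially encoded genes, 12 counted genes had a median of 0.25, and mt-Atp8 was at 415, 306 and 96.4 CPM, a log2 ratio of -1.66 between aged-GA and aged. The same ratio of mt-Atp8 was -1.39 in naive CD8 T cells, -1.46 in memory CD4 T cells and -1.39 in B cells.

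Naive CD4 T cells were then set against naive CD8 T cells of the same libraries, which were chosen by the same limits with Cd8a or Cd8b1 in place of Cd4 (1447, 310 and 611 cells). Both classes were summed per library and tested with edgeR's quasi-likelihood test, with the library as a block. Outside the genes of the gate, 8905 genes were tested, of which 663 (7.45%) were higher and 737 (8.28%) lower in naive CD4 T cells at an adjusted p under 0.05. Of these 1400 genes, 1308 had the same direction in all 3 libraries, which a test over the same libraries favours. The count was smaller with DESeq2, at 233 higher and 308 lower, and without the block, at 106 and 156, and 223 of the 1400 genes passed in every setting tried. The 3 libraries differ in age and treatment and each gave 1 pair. With so few pairs, edgeR took the spread of a gene mostly from all genes together. The p-values and SEs given below thus do not measure the spread of a gene's own 3 pairs alone, nor the spread between mice.

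Genes of the CD4 lineage were higher in naive CD4 T cells. Of 18 tested CD4 lineage and helper genes, 11 were higher and 3 lower, 5 and 1 of them in every setting. Cd40lg, the ligand by which helper T cells activate B cells, was at 41.9, 38.8 and 31.3 CPM in naive CD4 and at 2.41, 0.518 and 3.23 CPM in naive CD8 cells of the young, aged and aged-GA libraries (log2 fold change 3.90 ± 0.24 SE, adjusted p = 4.17e-22 by edgeR). Zbtb7b, which encodes the CD4 lineage factor ThPOK, was at 11.2, 20.9 and 14.0 CPM against 0.802, 2.07 and 1.84 CPM (3.26 ± 0.37 SE, adjusted p = 5.95e-11 by edgeR). Runx3, the factor of the CD8 lineage, was at 41.9, 41.8 and 48.6 CPM against 117, 116 and 120 CPM (-1.52 ± 0.11 SE, adjusted p = 1.22e-18 by edgeR). In these 3 genes the levels of the 2 classes did not overlap over the libraries. Gata3, Runx1, Il6ra, Il4ra, Tgfbr2 and Ifngr2 were also higher and Stat4 and Ifngr1 lower in naive CD4 T cells. Of these 8 genes, Runx1 and Il6ra passed in every setting and the others had a highest adjusted p between 0.0739 and 0.615 (edgeR or DESeq2).

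**Figure D5:**
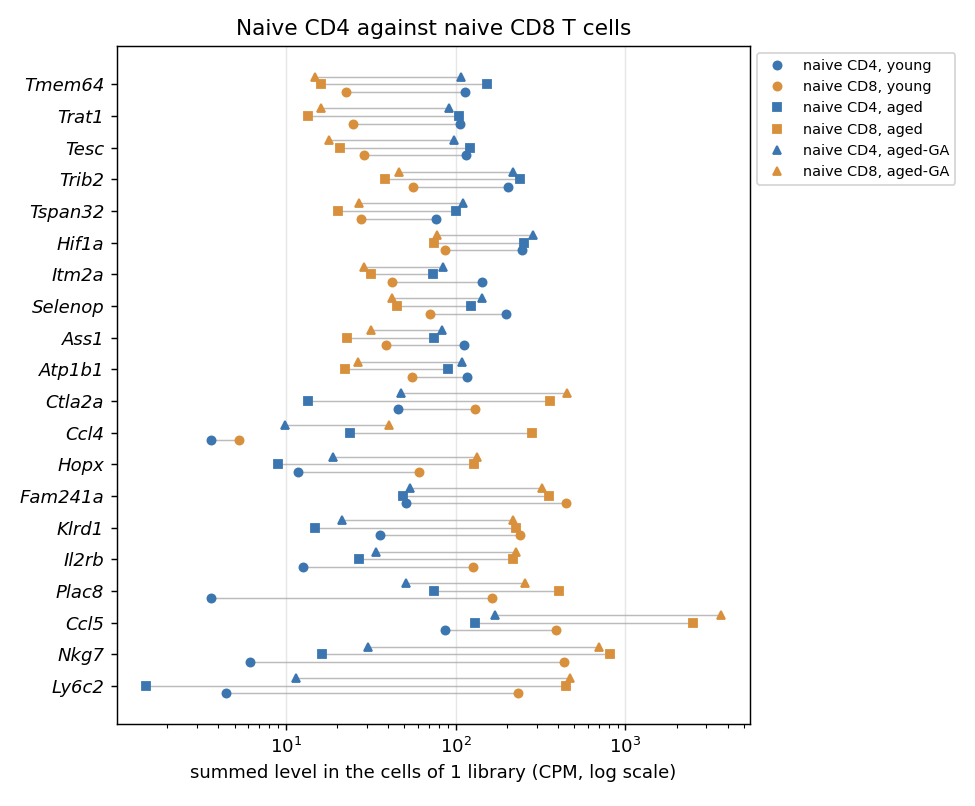
Summed level (x axis, CPM, log scale) in naive CD4 (blue) and naive CD8 (orange) T cells of each library (circle young, square aged, triangle aged-GA) for the 10 genes with the largest and the 10 with the smallest fold change among called genes with a mean of at least 50 CPM, without the gene classes left out of naming; lines join the classes of 1 library. In all 20 genes the direction is the same in the 3 libraries, which follows largely from choosing them by a test over these libraries.

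Among genes with a mean of at least 50 CPM, Tmem64, a membrane protein of the endoplasmic reticulum, had the largest fold change toward naive CD4 T cells. It was at 114, 152 and 107 CPM against 22.6, 16.1 and 14.8 CPM (2.55 ± 0.13 SE, adjusted p = 5.4e-27 by edgeR). Trat1, an adaptor that stabilises the T cell receptor complex, was at 106, 105 and 91.4 CPM against 24.8, 13.5 and 16.1 CPM. Trib2, a pseudokinase, was at 203, 239 and 219 CPM against 56.0, 38.4 and 46.4 CPM. Hif1a, the oxygen-sensing transcription factor, was at 245, 251 and 285 CPM against 86.2, 74.1 and 77.3 CPM. Tesc, Tspan32, Itm2a, Selenop, Ass1 and Atp1b1 completed the 10 genes, with log2 fold changes between 1.38 and 2.12. The highest adjusted p of Atp1b1 over the other settings was 0.0772, without the library block, and the other 9 genes stayed under 0.05 in each.

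The 10 named genes on the lower side were Ly6c2, Nkg7, Ccl5, Plac8, Il2rb, Klrd1, Fam241a, Hopx, Ccl4 and Ctla2a. Fam241a was at 50.8, 49.3 and 53.5 CPM against 444, 353 and 321 CPM. Markers of myeloid, B and erythroid cells were called too, none in every setting. Of 13 myeloid markers 7 were lower and 2 higher. Of 11 B cell markers Igkc was lower, and of 7 erythroid markers 4 were higher. S100a8 in aged-GA cells was at 231 CPM in naive CD4 and 694 CPM in naive CD8 T cells. The part of this RNA in the calls was not tested. The naive CD8 gate holds no limit on cytotoxic genes, and its cells carried Ccl5, a chemokine of effector cells, at 389, 2503 and 3657 CPM, against 86.2, 130 and 170 CPM in naive CD4 T cells. Nkg7, a granule protein, was at 6.14, 16.4 and 30.5 CPM in naive CD4 and 434, 810 and 699 CPM in naive CD8 T cells (-5.46 ± 0.13 SE, adjusted p = 5.16e-47 by edgeR). Ly6c2 was at 4.47, 1.49 and 11.5 CPM against 234, 449 and 472 CPM (-5.88 ± 0.15 SE, adjusted p = 3.86e-45 by edgeR). Ccl5, Plac8, Ccl4 and Ctla2a lost their call when the spread of single genes was estimated robustly, at adjusted p = 0.126, 0.149, 0.118 and 0.185 by edgeR. Ccl4 also lost it with DESeq2 (adjusted p = 0.091) and without the block (adjusted p = 0.261 by edgeR). The 8 tested NK and cytotoxic markers were called lower in naive CD4 T cells, 4 of them (Klre1, Klrd1, Nkg7 and Eomes) in every setting. Gzma was higher in the aged-GA members, at 56.8 against 17.5 CPM, where 92.8% of its 69 UMIs lay in 1 cell, and lost its call robustly, at adjusted p = 0.773 by edgeR. Of 27 tested memory and activation genes, 19 were lower, 6 of them in every setting, and 8 were higher, 3 of them in every setting. The Ly6 genes of that list divided, and Ly6c1 was higher in naive CD4 T cells at 118, 61.3 and 69.2 CPM against 6.53, 2.07 and 3.92 CPM (4.12 ± 0.17 SE, adjusted p = 9.24e-32 by edgeR).

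Naive and quiescence genes were higher in naive CD4 T cells for 14 of 23 tested genes, none of them in every setting. They were lower for 5, of which Ccr9 alone passed in every setting. Satb1 was at 918, 911 and 857 CPM against 541, 540 and 503 CPM (0.67 ± 0.06 SE, adjusted p = 1.46e-15 by edgeR), and Tcf7 was at 561, 725 and 650 CPM against 414, 495 and 410 CPM. Dapl1 was lower, at 288, 100 and 157 CPM against 432, 191 and 218 CPM. Ccr9, the receptor for homing to the gut, was at 1.12, 1.49 and 3.29 CPM against 31.4, 31.1 and 24.2 CPM (-4.22 ± 0.31 SE, adjusted p = 1.92e-18 by edgeR). Over the other settings of edgeR and DESeq2 the highest adjusted p was 0.0739 for Satb1, 0.175 for Tcf7 and 0.649 for Dapl1.

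Interferon-stimulated genes were higher in naive CD4 T cells for 11 of 28 tested genes, 3 of them in every setting, and lower for 3, none in every setting. Of the 17 class I genes none was higher and 6 were lower, and each of the 6 lost its call in another setting, at a highest adjusted p between 0.15 and 0.81 (edgeR or DESeq2). Slfn1, a schlafen protein of resting T cells, was at 112, 158 and 150 CPM against 63.5, 87.6 and 92.3 CPM (0.70 ± 0.09 SE, adjusted p = 9.95e-09 by edgeR). H2-Q7 was at 712, 899 and 1048 CPM against 913, 1100 and 1212 CPM (-0.38 ± 0.05 SE, adjusted p = 4.31e-08 by edgeR, highest 0.36 over the other settings). Of 7 tested regulatory T markers, 5 were higher, Izumo1r and Tnfrsf4 in every setting, and Ikzf2 was lower, with an adjusted p = 0.191 by robust edgeR and a highest of 0.467 over the settings of edgeR and DESeq2. The calls of Ctla4, Nrp1 and Capg were lost in other settings, at a highest adjusted p of 0.486, 0.375 and 0.0534 (edgeR or DESeq2). Izumo1r, the folate receptor 4 of CD4 T cells, was at 74.2, 80.7 and 96.4 CPM against 23.03, 10.9 and 12.2 CPM, and Tnfrsf4, the costimulatory receptor OX40, at 25.1, 29.9 and 14.8 CPM against 4.93, 4.67 and 5.997 CPM. Of 13 mitochondrially encoded genes, 10 were lower in naive CD4 T cells and none was higher. All 10 calls were lost in another setting, at a highest adjusted p between 0.70 and 0.97 (edgeR or DESeq2), and mt-Co2, mt-Atp6 and mt-Nd4l had that direction in 2 of 3 libraries. The median naive CD8 T cell held more UMIs, 5793, 6117 and 6971.

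Among the members themselves a few genes varied far more from cell to cell than counting would give. The ratio of variance to mean of thinned UMIs, which is near 1 for counting noise, was ranked over 1911 genes by its lowest value in the 3 libraries. Ccl5 led, with ratios of 17.9, 11.5 and 8.60 across young, aged and aged-GA members. Of its 309 UMIs in the young library, 56.6% were in 1 cell. The share of thinned members with a Ccl5 UMI was 2.71%, 9.52% and 15.0% (5.39%, 19.6% and 31.3% unthinned), at or below the 3.11%, 12.0% and 17.1% of B cells, which do not make it, so the share is read as background. The median member held 4713, 4403 and 5031 UMIs and the median B cell 3386, 3093 and 3751 UMIs. Trbc1, 1 of the 2 constant regions of the T cell receptor beta chain, of which a cell uses 1, had ratios of 3.35, 3.13 and 3.40. Ifi27l2a had ratios of 2.61, 3.30 and 3.66, and Igfbp4, on which members were selected, 2.21, 3.08 and 2.80. Malat1, Actb, Gm42418, Tmsb4x, Xist and Rps24 were the other genes of the top 10.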

How the data were processed

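The authors deposited raw UMI counts per gene and barcode for 3 libraries, made with Cell Ranger and the mm10 build per the labels. The members and gene lists were chosen with earlier results of these data known. Counts were summed over the members of a library, and ratios were log2 of CPM + 1, for genes whose UMIs reached 100 when the pair of libraries was summed. Named genes were the 10 with the largest ratio each way among genes of at least 50 CPM, without haemoglobin, mitochondrial, ribosomal protein, immunoglobulin, T cell receptor segment and gate genes; likewise by fold change among those passing edgeR; the 10 with the largest variance over mean; and genes of the 22 lists. Naive CD4 and CD8 T cells were compared with edgeR 4.0.16 (TMM, filterByExpr, library block since both classes share each library, Benjamini-Hochberg) and DESeq2 1.42.0, in R 4.3.3. Thinning drew 2000 UMIs per cell, leaving out 3, 1 and 0 shallower members. Members held 3583337, 669288 and 1214107 UMIs in the young, aged and aged-GA libraries. Doublets were limited by the gate alone. Alternatives changed the gate, the filters, the scaling and the test.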

Additional observations from a re-analysis of the deposited data

How the results depend on the processing

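The aged-to-young ratio of the naive CD4 share among kept cells was -2.45 on the log2 scale and stayed below 0 in each of the 11 other settings. It moved beyond its interval to -1.98 with cells thinned before the gate, -1.76 without the memory limit, -2.77 without the Cd4 limit (chosen after seeing the data), and -1.03 and -1.45 as a share of T cells and of CD4 T cells. The aged-GA over aged ratio of 0.37 became 0.68 with at most 5% mitochondrial UMIs and reversed to -0.0575 as a share of T cells.

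Genes 2-fold higher and lower, aged over young, numbered 51 and 29 with a pseudocount of 10 CPM, 627 and 263 with a minimum of 20 UMIs, 59 and 102 when centred on the median, and 66 and 29 with at most 5% mitochondrial UMIs; 77 were lower with totals without mitochondrial, ribosomal protein and haemoglobin genes and 49 higher in thinned cells. Aged-GA over aged, they numbered 9 and 2 with a pseudocount of 10 CPM, 183 and 110 with 20 UMIs and 5 and 7 as a mean over cells. In thinned cells they numbered 3 and 3, and without the deepest 5% of cells 4 and 5. Without cells of 10 or more UMIs of other cell types (chosen after seeing the data) they numbered 3 and 3. In the last setting Tyrobp (-1.37), S100a8 (-0.58), Ifitm3 (-1.04), S100a9 (-0.81) and the myeloid median (-0.81) were reversed, which follows from the choice, since these genes are among those by which the cells were left out; Ifitm3 also reversed without the deepest cells (-1.05) and the regulatory T median with 20 UMIs (-0.64). The planned setting that left out cells with 2 UMIs of these and erythroid markers kept 12, 0 and 0 cells and was not run.

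Without the replicate block, here the library, 106 genes were higher and 156 lower in naive CD4 than in naive CD8 T cells. DESeq2 gave 233 and 308. Leaving out 1 library gave 430 to 584 higher and 523 to 663 lower. Of the 1400 calls, 1371 held with robust estimation (chosen after seeing the data), 541 with DESeq2, 262 without the block and 223 in every setting. The causes were not tested. With 1 library per group and 148 aged members, levels under 4.48 CPM could not be told from 0 in the aged library.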
